A study of Mus musculus and Rattus norvegicus with 2 samples.

Results

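Reads of 5 structural RNA families were described in sperm of the mouse and the rat: Y RNA, vault RNA, the RNA of the signal recognition particle (SRP RNA, also called 7SL), 7SK RNA and the RNA of RNase P. Members were the distinct sequences that the authors had assigned to Rfam entries of these families, Rfam being a database of RNA families. Sequences assigned to RNase MRP RNA, or to GenBank entries of small cytoplasmic or SRP RNA, would also have counted, and there were 0 of each in both libraries. Summed over the libraries, with a sequence found in both counted in each, 4431 of 226567 distinct sequences were members. They were 2079 of 89179 in mouse and 2352 of 137388 in rat.

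The study sequenced small RNAs of spermatozoa of the cauda epididymis, where mature sperm are kept before ejaculation. C57BL/6 mice of 2 months gave the first library and young adult Sprague Dawley rats of 450 g the second. No treatment is named for either, both were labelled as purified sperm, RNA was extracted with Trizol, and the fraction of 18 to 45 nt was sequenced on an Illumina GAIIx. Each species had 1 library, so nothing could be checked against replicates and no test was run. All intervals are exact 95% intervals that cover counting error only, and a difference between the libraries cannot be told apart from a difference between the species.

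The mouse library listed 691381 reads and the rat library 2102735 reads, so a count of 0 leaves room for shares below 0.000434% (mouse) and 0.000143% (rat). Shares are of these listed reads, and 78279 mouse and 63001 rat identifiers were not listed and not analysed here. Of the mouse member sequences, 56 had a damaged count and were left out. Read as counts, the damaged cells would add 517 reads to the 4090 listed. As a check of the labelled cell type, the germ cell miRNAs miR-34b, miR-34c and miR-449a held 1.64% of the mature miRNA reads in the mouse and 26.1% in rat, with all 3 present in both. Epithelial miRNAs (6 of 6 present in both) held 2.61% in mouse and 1.13% in rat. Smooth muscle and stromal miRNAs held 10.3% in mouse (4 of 4 present) and 3.25% in rat (3 of 4, with miR-214 at 0). Nearly all of these reads were miR-143, with 2392 in mouse and 813 in rat. Blood cell miRNAs held 42 mouse reads (4 of 6 present, miR-150 and miR-223 at 0) and 3 rat reads (3 of 6, with miR-451, miR-486 and miR-223 at 0). Summed by list, markers of other cells were thus a larger part of the miRNA reads in the mouse. The epithelial sum rested mainly on miR-375 (380 mouse and 163 rat reads) and miR-141 (218 and 104). Not all members followed the sums. More reads in the rat were found for miR-199a (9 mouse and 16 rat reads), miR-200a (5 and 18), miR-200b (1 and 3) and miR-150 (0 and 1). The part of other cells in the results below was not tested.

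All of these RNAs are made by RNA polymerase III and act in RNA-protein particles. Y RNAs bind the Ro60 protein, take part in the start of DNA replication and fold so that their 5′ and 3′ ends pair. Vault RNA is a component of the vault, a large cytoplasmic particle. SRP RNA is the scaffold of the particle that brings ribosomes making secreted proteins to the endoplasmic reticulum, and the B1 repeats scattered through rodent genomes descend from it. The 7SK RNA holds the transcription elongation factor P-TEFb in an inactive complex, and RNase P trims the 5′ leader from tRNA precursors.

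To see which end of each RNA was sequenced, reads were placed on the mouse RNAs of GENCODE M21 (GRCm38) without gaps and with at most 2 mismatches. The rat reads were placed on the mouse RNAs too. Positions below count from 1 at the 5′ end of the mouse RNA. Stretches on which most placed Y RNA and 7SK RNA reads lay are shown, with the most used reads of either library in capitals. Rny1, the gene of Y1 RNA (chr6:47788069-47788180, minus strand), is shown whole. SRP RNA was placed on Rn7s1 (chr12:69159295-69159594, plus strand). Rn7s2 (chr12:69361182-69361481, minus strand) makes the same SRP RNA sequence, and the reads of both cannot be told apart. Of Rn7sk, the gene of 7SK RNA (chr9:78175303-78175633, minus strand), bases 51 to 170 are shown. Each is annotated as a non-coding RNA gene (misc_RNA), so a read that comes from it lies in its exon. Some leading sequences occur in further GENCODE genes on the same strand, and their reads cannot be assigned to 1 gene. Bases 131 to 151 of 7SK RNA occur in 5 genes and bases 73 to 94 of SRP RNA in 6.
Rny1: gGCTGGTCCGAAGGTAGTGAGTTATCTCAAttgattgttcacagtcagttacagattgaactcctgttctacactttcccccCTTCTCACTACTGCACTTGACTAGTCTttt
Rn7sk: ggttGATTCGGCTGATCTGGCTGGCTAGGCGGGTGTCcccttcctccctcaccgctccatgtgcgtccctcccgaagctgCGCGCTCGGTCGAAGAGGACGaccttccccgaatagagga

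The families together held 0.592% of mouse reads (0.574 to 0.610) and 0.781% of rat reads (0.769 to 0.793). The libraries differed most in Y RNA and vault RNA, which were higher in the rat, and hardly in SRP RNA. SRP RNA supplied 79.9% of the member reads in the mouse (78.6 to 81.1) and 61.7% in rat (61.0 to 62.5). Y RNA and vault RNA supplied 3.45% and 1.37% in mouse but 14.2% and 14.97% in rat. Read shares are not divided by the length of the parent RNA and do not rank the levels of the RNAs.

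Y RNA held 141 mouse reads, 0.0204% (0.0172 to 0.0241), and 2327 rat reads, 0.111% (0.106 to 0.115). That share was 5.43 times as high in the rat (4.58 to 6.48). Vault RNA held 56 mouse reads, 0.00810% (0.00612 to 0.0105), and 2459 rat reads, 0.117% (0.112 to 0.122), a share 14.4 times as high in the rat (11.1 to 19.2). Reading the damaged mouse cells as counts raised the mouse vault reads to 87.

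SRP RNA held 3268 mouse reads, 0.473% (0.457 to 0.489), and 10134 rat reads, 0.482% (0.473 to 0.491). The interval of the ratio of rat to mouse, 1.02 (0.980 to 1.06), included 1. 7SK RNA held 577 mouse reads, 0.0835% (0.0768 to 0.0905), and 1430 rat reads, 0.0680% (0.0645 to 0.0716), and was 1.23 times as high in the mouse (1.11 to 1.35). RNase P RNA held 48 mouse reads and 72 rat reads, and its share was 2.03 times as high in the mouse (1.38 to 2.96). For 7SK and RNase P RNA many reads were not placed on the parent RNA, as described below, and the ratios of mouse to rat for the placed reads alone had intervals that included 1. They were 1.18 (0.999 to 1.40) for 7SK and 1.11 (0.520 to 2.20) for RNase P RNA. With the 16 rat reads that reach up to 3 bases beyond the 5′ end of RNase P RNA counted as placed, the latter turned to 0.745 (0.361 to 1.42), on 12 mouse and 49 rat reads. Placed reads leave out rat reads with more than 2 mismatches to the mouse RNA. On Rpph1, the RNase P RNA gene, 21.9% of placed rat reads and 100% of placed mouse reads matched exactly. On 7SK RNA these were 90.4% and 71.2%.

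Other structural RNAs show how far shares moved between these libraries in general. Small nuclear RNA of the spliceosome was 3.44 times as high in the mouse (3.20 to 3.69) and small nucleolar RNA 3.67 times (3.52 to 3.83). In the other direction, 5.8S rRNA was 8.04 times as high in the rat (7.36 to 8.79), and 5S rRNA 1.16 times (1.14 to 1.18). Fragments of tRNA held 53.8% of mouse reads and 16.3% of rat reads, the larger part of the mouse total but not of the rat total. How this moved the other shares was not tested. Mature miRNA was itself 2.75 times as high in the mouse (2.71 to 2.80), which lowers every ratio of mouse to rat counted per miRNA read. Counted per mature miRNA read in place of per listed read, all 5 families were higher in the rat. The directions for 7SK and RNase P RNA thus depended on the denominator and those for Y and vault RNA did not.

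**Figure D1:**
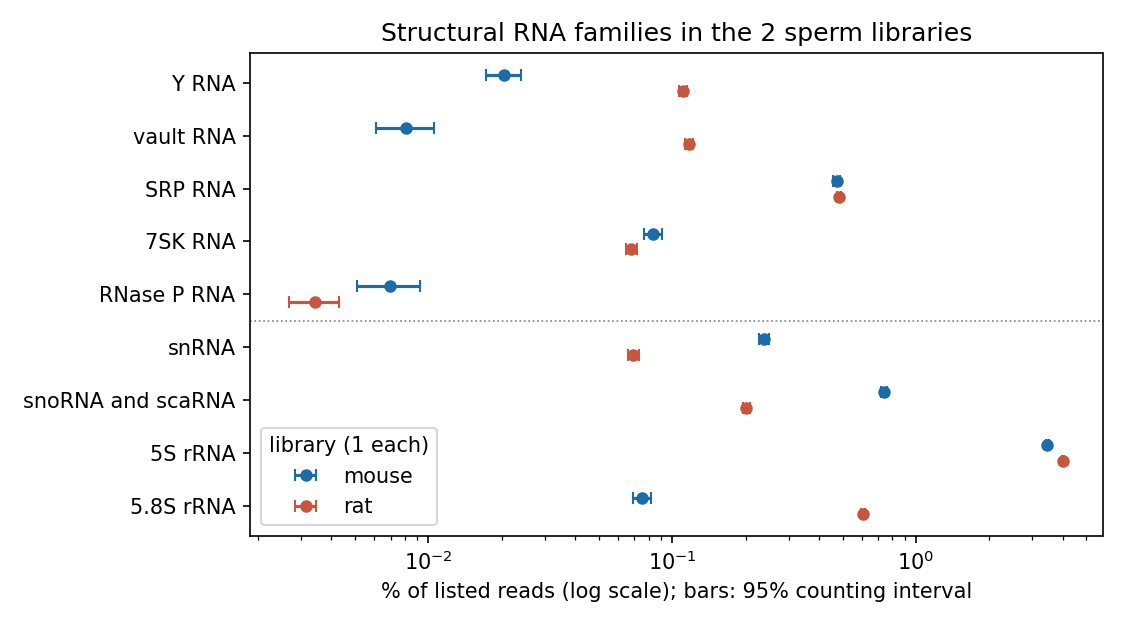
Percent of listed reads (log axis) held by the 5 families, above the dotted line, and by 4 other structural RNA classes below it; points are the mouse (blue) and rat (red) library and bars the 95% counting interval. Y RNA (0.0204% and 0.111%) and vault RNA (0.00810% and 0.117%) lie far to the right in the rat, and the SRP RNA points nearly coincide.

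The Y RNA reads used the ends of Y1 RNA differently in the libraries. In the rat nearly all were a 5′ fragment of 28 to 30 nt, while both ends were used in the mouse in similar numbers. Of the Y RNA reads, 140 of 141 in mouse and 2327 of 2327 in rat lay on Rny1, and none of these member reads was placed on Rny3, the gene of Y3 RNA. Of the placed mouse reads 60 lay on the 5′ side of the middle of the RNA (42.9%) and 80 on its 3′ side (57.1%). Of those of the rat 2306 lay on the 5′ side (99.1%) and 21 on the 3′ side (0.902%).

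Per listed read the sides therefore differed in opposite directions. The 5′ side was 12.6 times as high in the rat (9.78 to 16.6), and the 3′ side 11.6 times as high in the mouse (7.09 to 19.7). The ratio of the 2 ends, which pair in the folded RNA, was thus not the same in both libraries. To gather reads with nearly the same start, windows of 3 nt to either side of each much used 5′ end were set after the ends had been seen, here and for the other RNAs. All 60 mouse reads and 2304 of the 2306 rat reads of the 5′ side began at bases 1 to 6. Of the reads of the 3′ side, 78 in mouse and 7 in rat began at bases 80 to 86. In the mouse these were 55.7% of the placed reads (47.1 to 64.1), an interval that includes an even split.

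The exact ends differed as well. In the rat 78.3% of the placed reads began at base 3 (1823 reads), 14.4% at base 2 (336) and 5.84% at base 1 (136), and 96.0% ended at base 30 (2235 reads). In the mouse the 5′ fragment began mostly at base 1 (43 of 60 reads) and ended at base 30 in 19 reads and at base 23 in 18. The mouse 3′ fragment began at base 83 in 74 reads and ended at base 106 in 33 and at base 109 in 30. The rat fragment thus had a nearly uniform 3′ end and a 5′ end staggered over 3 bases.

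The most abundant Y RNA sequences show the same change of end. The first 3 led in the rat and the last 3 in the mouse.
bases 3 to 30: ctggtccgaaggtagtgagttatctcaa
bases 2 to 30: gctggtccgaaggtagtgagttatctcaa
bases 1 to 30: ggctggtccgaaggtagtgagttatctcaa
bases 83 to 106: cttctcactactgcacttgactag
bases 83 to 109: cttctcactactgcacttgactagtct
bases 1 to 23: ggctggtccgaaggtagtgagtt
The sequence of bases 3 to 30 had 1719 rat reads and 4 mouse reads. That of bases 2 to 30 had 310 and 5, and that of bases 1 to 30 had 85 and 6. Those of bases 83 to 106 and 83 to 109 had 27 mouse reads and 2 rat reads each, and that of bases 1 to 23 had 16 mouse reads and 0 rat reads. All 6 matched mouse Rny1 without a mismatch.

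The rat Y RNA reads were concentrated on 1 sequence, which held 73.9% of them (72.0 to 75.6), and the first 3 held 90.8%. In the mouse the first sequence held 19.1% (13.01 to 26.6) and the first 3 held 49.6%. The modal length was 28 nt in the rat (77.6% of reads) and 24 nt in the mouse (22.7%). The 13 sequences found in both libraries held 61.0% (mouse) and 91.9% (rat) of the Y RNA reads. How many of all listed sequences were found in both was not counted, here and for the other families. Against the authors' assigned entries, 94.2% of the rat Y RNA reads but 0% of mouse reads had no mismatch, while 85.0% of the placed mouse reads matched Rny1 exactly. The mouse reads were spread over 6 entries, the first 3 with 60, 42 and 36 reads, and 98.9% of rat reads had 1 entry.

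**Figure D2:**
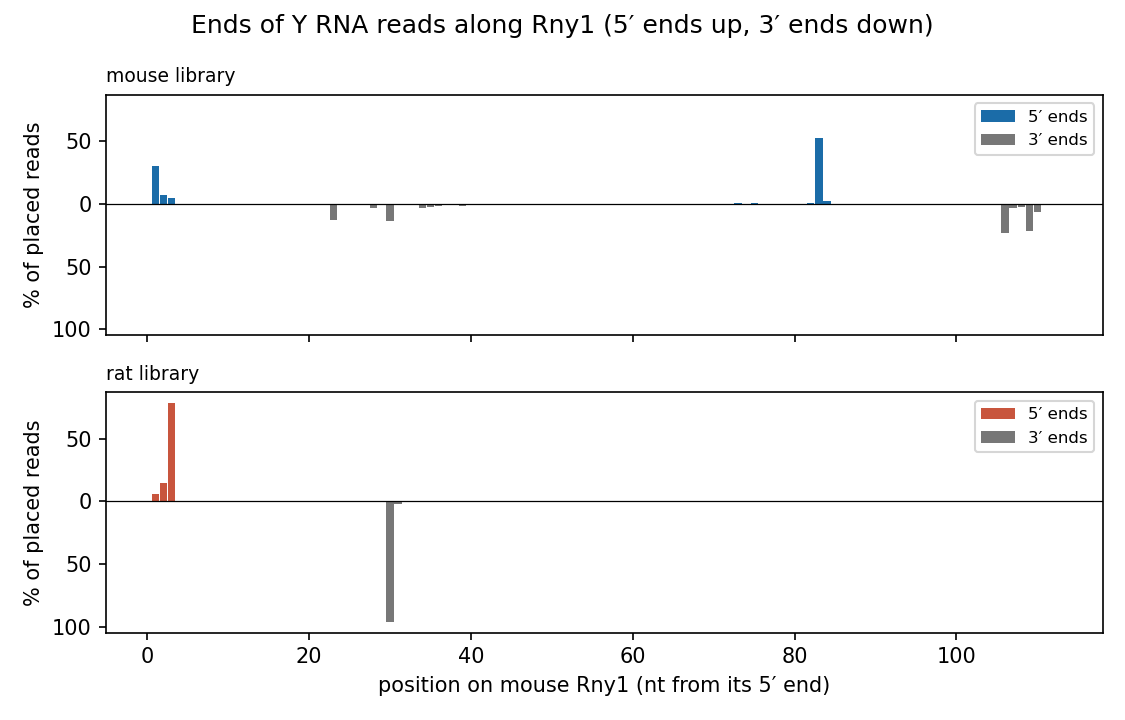
Percent of placed Y RNA reads whose 5′ end (up) or 3′ end (down) lies at each base of mouse Rny1, in the mouse (140 reads) and rat (2327 reads) library. The rat has a 5′ end peak at base 3 and a 3′ end peak at base 30; the mouse has its highest 5′ end peak at base 83.

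Reads of Y3 RNA were present under labels outside the families. By sequence, 54 mouse reads and 20 rat reads lay best on Rny3, the gene of the other Y RNA of the mouse (chr6:47781624-47781725, plus strand), a share 8.21 times as high in the mouse (4.84 to 14.5). Of these, 88.9% in mouse (48 reads) and 90.0% in rat (18 reads) lay on the 3′ side of the middle of the RNA. The most abundant sequence began at base 74 in both libraries, with 5 reads in the mouse and 6 in rat. For Y3 the 3′ side was thus the more frequent one in both libraries, on few reads. Of the reads on Rny3, 92.6% in mouse and 65% in rat matched it exactly. Rat reads with more than 2 mismatches to the mouse RNA were not counted in the ratio.

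The vault RNA reads were mainly a single short fragment close to the 3′ end of the RNA in both libraries, with a most used 5′ end that differed by 1 base. All 56 mouse reads and 2436 of 2459 rat reads lay on mouse Vaultrc5, which is 143 nt long. Reads starting at bases 115 to 121 made up 67.9% in mouse (38 reads, 54.0 to 79.7) and 94.6% in rat (2304 reads, 93.6 to 95.4). Per listed read that fragment was 19.9 times as high in the rat (14.5 to 28.2). The reads starting elsewhere differed less, being 2.41 times as high in the rat (1.47 to 4.19). The 3 damaged mouse vault cells, read as counts, all fell in the fragment, raising it to 69 of 87 reads (79.3%) and lowering the first ratio to 11.3.

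The most used 5′ end was base 117 in mouse (22 of 56 reads, 39.3%, 26.5 to 53.2) and base 118 in rat (1575 of 2436, 64.7%, 62.7 to 66.6). The most used 3′ end was base 140 in mouse (21 reads, 37.5%) and base 139 in rat (1557 reads, 63.9%). The modal length was accordingly 24 nt in the mouse (41.1% of reads) and 22 nt in the rat (45.5%). The leading sequence covered bases 117 to 140 in mouse, with 18 reads or 32.1% of the family (20.3 to 46.0). In the rat it covered bases 118 to 139, with 1044 reads or 42.5% (40.5 to 44.4), and the first 3 held 73.6%. With the damaged cells read as counts, the most used mouse 5′ end was still base 117 (45 of 87 reads, 51.7%), and the leading sequence held 20.7%. The most used mouse 3′ end then became base 139 (27 reads), as in the rat, and lengths of 22 and 24 nt were equal in the mouse at 23 reads each. The difference at the 5′ end thus did not depend on the damaged cells, and those at the 3′ end and in modal length did.

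The vault reads of the species also differed at 1 base. At base 132 of Vaultrc5, 2429 of 2431 rat reads had a base other than that of the mouse RNA, against 3 of 54 mouse reads. The 2 vault sequences found in both libraries had 3 mouse reads and 1045 rat reads. Of these mouse reads, 2 were the leading rat sequence.

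**Figure D3:**
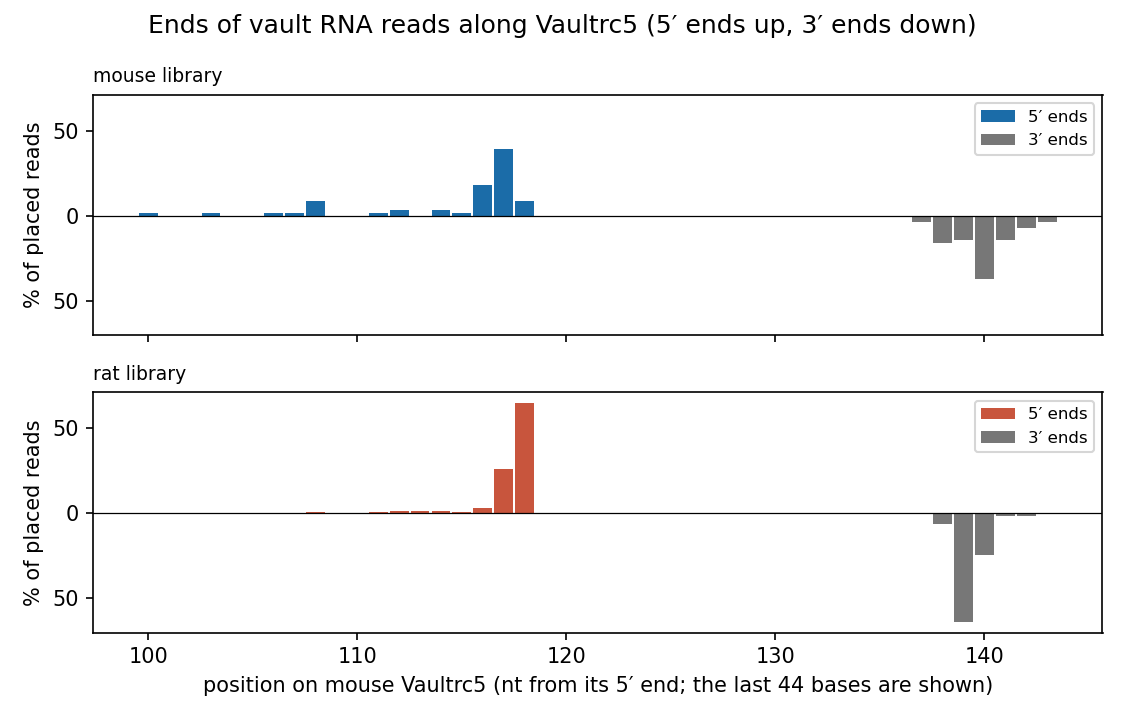
Percent of placed vault RNA reads whose 5′ end (up) or 3′ end (down) lies at each of the last 44 bases of mouse Vaultrc5, in the mouse (56 reads) and rat (2436 reads) library. The highest 5′ and 3′ end peaks are at bases 117 and 140 in mouse and 118 and 139 in rat; the 3 damaged mouse cells are not drawn, and with them the mouse 3′ peak would be at base 139.

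SRP RNA had nearly the same share in both libraries but different fragments. The largest group of rat reads came from a stretch near the 5′ end of the RNA. The mouse reads were more scattered, with larger shares than in the rat from starts near base 73 and beyond base 220. A fragment of bases 191 to 220 was prominent in both. Of the SRP RNA reads 83.5% in mouse (2729 reads) and 99.1% in rat (10041 reads) lay on Rn7s1. Counting only these, the share was 1.21 times as high in the rat (1.16 to 1.26).

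The window from base 34 to 40 held the 5′ ends of 5.72% of the placed mouse reads (156 reads, 4.87 to 6.65) and of 51.6% of those of the rat (5180 reads, 50.6 to 52.6). Per listed read they were 10.9 times as high in the rat (9.31 to 12.9). That window was set through the rat alone, where base 37 held 43.7% of placed reads against 2.49% in mouse.

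Reads starting at bases 70 to 76 were 22.6% in mouse (616 reads) and 6.84% in rat (687 reads), 2.73 times as high per listed read in the mouse (2.44 to 3.04). Base 73 was the most used 5′ end in the mouse, with 368 reads or 13.5% (12.2 to 14.8). Another region lay at the 3′ side, beyond base 220, where 24.5% of the placed mouse reads (669) and 6.14% of those of the rat (617) began, 3.30 times as high in the mouse (2.95 to 3.68). Within it, starts at bases 233 to 239 had 183 mouse and 64 rat reads, 8.70 times as high in the mouse (6.51 to 11.7). That window was set through the mouse alone, where base 236 held 3.19% of placed reads, so its ratio partly follows from the choice. Base 220 was taken as the limit because it was the most used 3′ end in the mouse.

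Reads starting at bases 188 to 194 were 10.7% in mouse (292 reads) and 18.1% in rat (1814 reads), 2.04 times as high in the rat (1.80 to 2.32). The very ends of the RNA were little used in either library. Within 3 nt of either end of the RNA lay 4.43% of the mouse and 4.37% of rat reads, unlike Y1 RNA, where these were 70.7% and 99.1%.

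Of the most abundant SRP RNA sequences 3 are shown. The first was among the first 3 of both libraries, and the last 2 were among the first 3 of the mouse.
bases 191 to 220: caggtcggaaacggagcaggtcaaaactcc
bases 73 to 94: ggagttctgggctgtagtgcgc
bases 73 to 95: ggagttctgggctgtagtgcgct
The sequence of bases 191 to 220 had 707 rat reads and 129 mouse reads and was the most abundant of the mouse. That of bases 73 to 94 had 175 rat and 113 mouse reads, and that of bases 73 to 95 had 19 rat and 80 mouse reads. The last pair, which differ by 1 base at the 3′ end, were thus ordered alike but in different proportion.

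The mouse SRP RNA reads were less concentrated on single sequences. Under the label the mouse had 1575 sequences for 3268 reads and the rat 1492 for 10134. On Rn7s1 itself the order of the numbers of sequences turned, with 1165 for 2729 mouse reads and 1424 for 10041 rat reads. The first sequence held 3.95% of mouse reads (3.31 to 4.67) and 17.4% of rat reads (16.6 to 18.1), and the first 3 held 9.85% and 36.2%. The 422 shared sequences held 47.8% of mouse reads and 78.6% of rat reads.

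Mouse SRP RNA reads were also longer, as were the mouse reads as a whole. The median was 32 nt, against 28 nt for the rat reads, and reads of 37 nt or more made up 38.6% of the placed mouse reads and 6.60% of those of the rat. Over all listed reads the median was 31 nt in mouse and 29 nt in rat, and reads of 37 nt or more made up 13.5% and 4.76%. Of the long SRP RNA reads, 42.1% in mouse and 21.7% in rat began beyond base 220, against 13.4% and 5.04% of the shorter reads. Beyond that base the modal length was 43 nt in mouse, where 66.4% of reads were of 37 nt or more. Over all listed reads, those above 45 nt, outside the stated size range, were 1.05% in mouse and 0.1199% in rat.

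A part of the mouse SRP RNA reads lay off the parent RNA. These were 539 reads of 410 sequences, of which 67.5% were assigned on the minus strand and 83.5% shared an 18-mer with reads that the authors had assigned to mRNA. An 18-mer was also shared with reads labelled piRNA by 39.0%, tRNA by 31.9% and rRNA by 13.2%. Such shares were not computed over all listed reads, and the origin of the reads was not tested. The most abundant, with 34 reads, was chosen after its value was seen.
minus-strand SRP RNA label, mouse: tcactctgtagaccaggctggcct
This sequence occurs in transcripts of 522 mouse genes on the same strand and 432 on the other, and not on Rn7s1. In the rat 93 reads lay off the RNA, of which 75.3% were repeats of few bases. Reads off the parent RNA were thus more numerous in the mouse, the library with fewer reads.

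**Figure D4:**
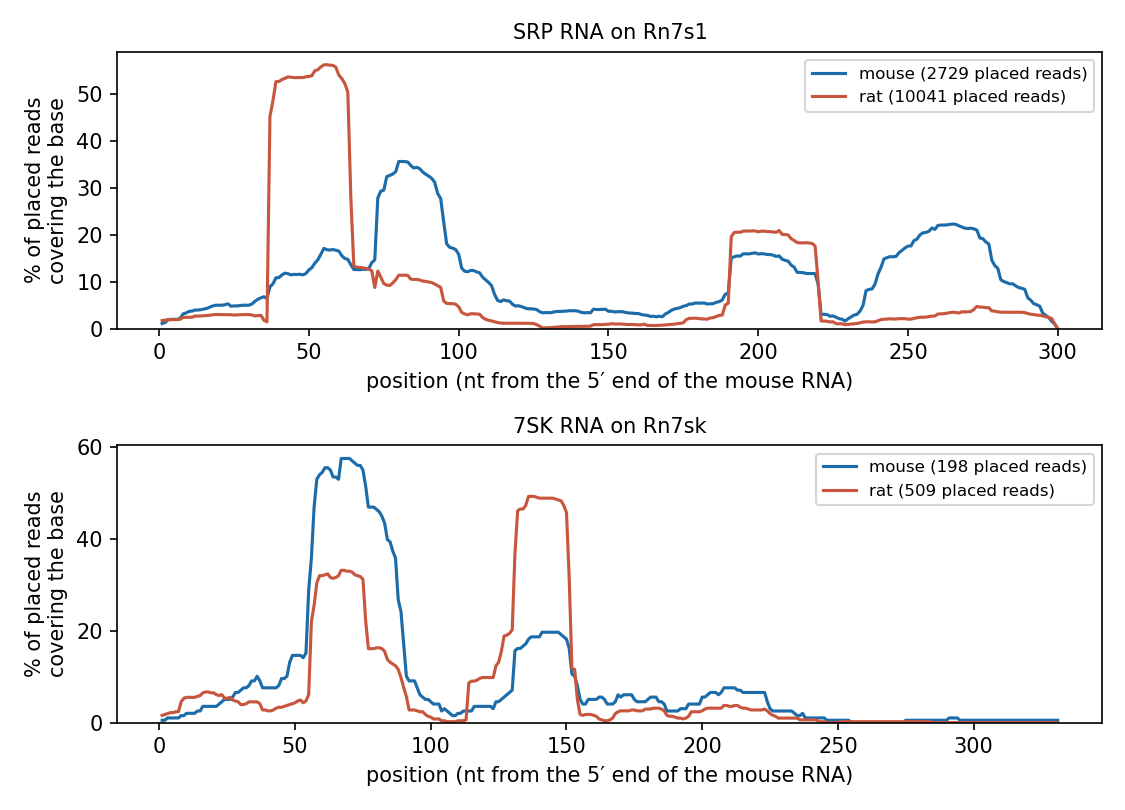
Percent of placed reads covering each base of mouse Rn7s1 (SRP RNA, top) and Rn7sk (7SK RNA, bottom) in the mouse (blue; 2729 and 198 reads) and rat (red; 10041 and 509 reads) library. On SRP RNA the rat peaks nearer the 5′ end and the mouse over bases 73 to 94 and again beyond base 220; on 7SK RNA the mouse peaks after base 55 and the rat over bases 131 to 151.

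For 7SK RNA only a minority of the reads labelled as such lay on the RNA, and these came mostly from 2 places on its 5′ side. Placed on Rn7sk, which is 331 nt long, were 198 of 577 mouse reads (34.3%, 30.4 to 38.3) and 509 of 1430 rat reads (35.6%, 33.1 to 38.1). From bases 53 to 59 began 41.9% of the placed mouse reads (83 reads, 35.0 to 49.1) and 28.5% of those of the rat (145 reads, 24.6 to 32.6). From bases 128 to 134 began 11.6% in mouse (23 reads, 7.51 to 16.9) and 27.7% in rat (141 reads, 23.9 to 31.8). Both libraries thus used both places, in different proportion, and 87.4% of the mouse and 92.9% of rat reads lay on the 5′ side of the middle.

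Per listed read the fragment from bases 53 to 59 was 1.74 times as high in the mouse (1.31 to 2.30) and that from bases 128 to 134 was 2.02 times as high in the rat (1.29 to 3.28). The rat also had 45 reads starting at bases 111 to 117, mostly of 37 nt and ending at base 150, where the mouse had 3. The most abundant sequence on the RNA was the same in both, with 65 rat reads and 7 mouse reads.
bases 131 to 151: cgcgctcggtcgaagaggacg
Reads of the first place were longer in the mouse, with a modal length of 33 nt and 87 as the most used last base, against 20 nt and base 75 in rat. The most used start was thus the same to within a few bases and the most used 3′ end was not. Over all placed 7SK RNA reads both libraries used bases 75 (7 mouse and 47 rat reads), 76 (9 and 31) and 89 (15 and 11) as 3′ ends, in different proportion.

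One base of 7SK RNA differed between reads of the same library. At base 84, given here with the base of Rn7sk first, T84G was found in 46 of 79 mouse reads (58.2%, 46.6 to 69.2) and 32 of 70 rat reads (45.7%, 33.7 to 58.1). The next most mismatched base of Rn7sk differed in 3.26% of mouse reads that covered it and 0.769% of those of the rat. Whether reads with either base came from Rn7sk or from another gene was not tested.

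Many of the 7SK-labelled reads off the RNA shared sequence with reads of other labels. In the rat these were 921 reads, of which 83.2% shared an 18-mer with reads that the authors had assigned to tRNA and 64.8% were assigned on the minus strand. An 18-mer was also shared with reads labelled mRNA by 57.0%, piRNA by 2.17% and rRNA by 1.41%. The origin of these reads was not tested. By sequence 578 of the 921 lay on Bc1, another mouse RNA used for placement, 482 of them in sense. Of all rat reads on Bc1 in sense, 99.0% were labelled tRNA. Of the 3 most abundant 7SK-labelled sequences of the rat, 2 lay off the RNA, and each differs by 1 base from a tRNA-labelled rat sequence with 21121 reads, a 5′ fragment of tRNA-Ala, with 77 reads for G10C and 57 for G2C. Positions count from the 5′ end of the read, the base of the tRNA-labelled sequence comes first, and the differing base is in capitals.
tRNA-labelled: ggggatgtagctcagtggtagag
7SK-labelled, 77 reads: ggggatgtaCctcagtggtagag
7SK-labelled, 57 reads: gCggatgtagctcagtggtagag
Neither was found in the mouse. On Bc1 the 7SK-labelled sequences with 77 and 57 reads lay at bases 7 to 29, each with 2 mismatches. The rat 7SK reads were spread over 79 entries, the first with 637 reads.

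In the mouse 379 reads lay off the RNA, and 85.5% of them carried 2 mismatches to their assigned entry. The most abundant had 118 reads, 20.5% of all mouse 7SK-labelled reads (17.2 to 23.98), and 0 in rat. The next had 19 mouse reads and was a repeat of few bases.
7SK-labelled, 118 reads: tgggctgggctgtgggggg
7SK-labelled, 19 reads: aaggaggaggaggaggaggaggaggaa
The first of these occurs in 0 GENCODE genes on either strand. It supplied 118 of the 147 mouse 7SK-labelled reads at their modal length of 19 nt. Most reads of the 7SK label thus lay off the RNA in both libraries.

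RNase P RNA was close to the limit of what these libraries count. Of 48 mouse reads 12 lay on Rpph1, its gene (chr14:50807449-50807767, minus strand), and of the other 36 reads 34 were repeats of few bases. Of the 72 rat reads 33 were placed, 32 on Rpph1 and 1 on the related Rprl3. In the mouse 6 of the 12 placed reads were 1 sequence, at bases 176 to 204, and no rat read had it. Among the 33 placed rat reads no 5′ end had more than 5 reads.
Rpph1 bases 176 to 204: gtcggggcggatgcctccctcgccggagc
RNase P label, rat, 11 reads: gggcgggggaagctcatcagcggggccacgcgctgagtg
The second, the most abundant of the rat, begins before base 1 of the mouse RNA. With up to 3 bases beyond that end allowed, 16 further rat reads were placed, all at the 5′ end, which brought the placed reads to 49 of 72 (68.1%). By their first 15 nt, 16 rat reads of this family shared the most used start. Among the 36 mouse and 49 rat sequences of this family, of which 28 and 39 had 1 read, none was shared. Without the share over all listed sequences, this says nothing particular about the family. RNase MRP RNA, the related enzyme that cuts the precursor of ribosomal RNA, had 0 reads under its label, and by sequence 2 reads lay on Rmrp in each library.

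**Figure D5:**
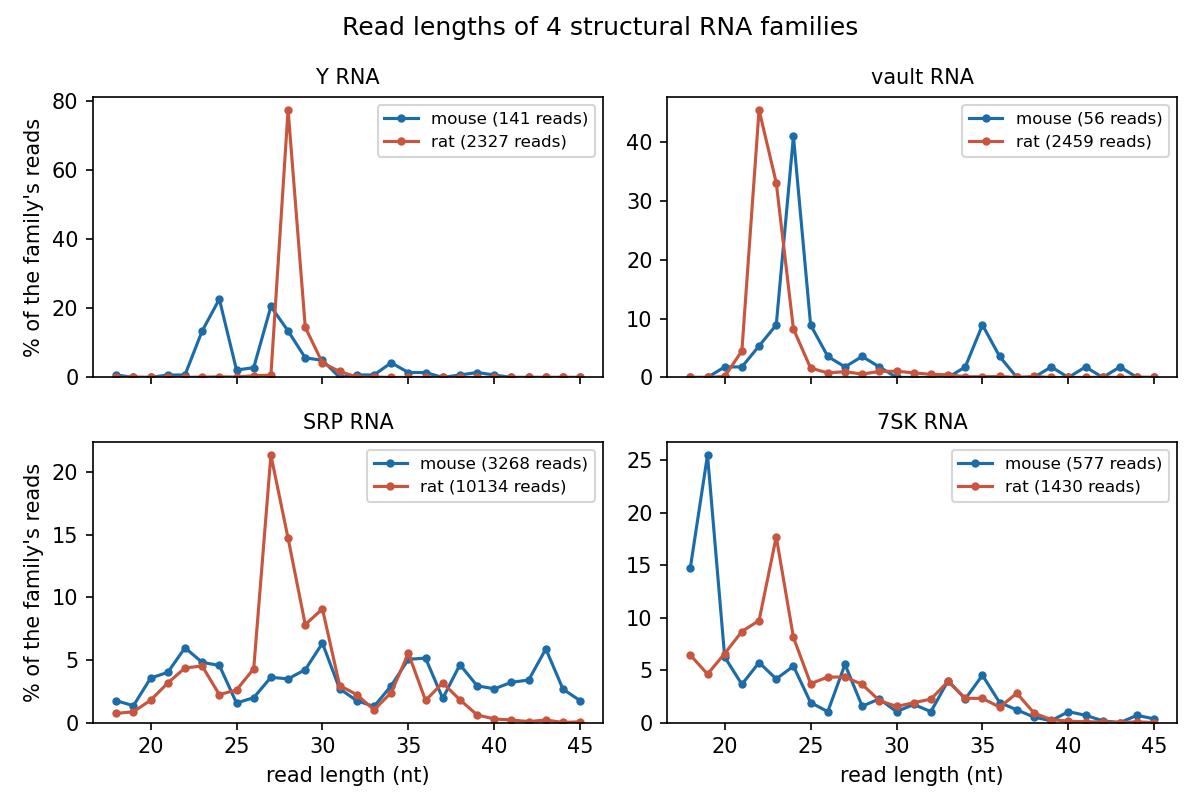
Percent of each family's reads at each length from 18 to 45 nt in the mouse (blue) and rat (red) library, for Y, vault, SRP and 7SK RNA. The rat has narrow peaks at 28 nt (Y RNA), 22 nt (vault RNA) and 27 nt (SRP RNA); the mouse peaks at 24 nt for Y and vault RNA (damaged cells left out), is broad for SRP RNA and peaks at 19 nt for the 7SK label.

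First bases differed along with these ends. Reads beginning with C made up 78.6% of the rat Y RNA reads and 72.1% of the rat SRP RNA reads, against 41.1% of all listed rat reads. In the mouse 58.2% of the Y RNA reads and 31.1% of the SRP RNA reads began with C, against 12.4% of all listed reads. Vault RNA reads began with A in 67.3% of cases in the rat and with G in 50% in mouse. The share of the most abundant sequence was higher in the rat for Y and SRP RNA and higher in the mouse for the 7SK label, while its intervals overlapped for vault and RNase P RNA. The vault overlap leaves out the damaged mouse cells. Read as counts, they lowered the mouse share to 20.7%, against 42.5% in rat. For 7SK the order rested on reads off the RNA. Among reads placed on Rn7sk the first sequence held 3.54% in mouse (1.43 to 7.15) and 12.8% in rat (9.996 to 15.99), and among reads without a mismatch to their entry 4.64% and 8.87%.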

How the data were processed

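Values were the deposited counts of reads per distinct sequence, with strand, assigned database entry and mismatches, per the file headers. The submitters' processing notes name Bowtie 0.12.7 and 2 builds, mm9 and rn5, without their roles. How adapters were trimmed: not given in the sources used here. Printed sequences on the minus strand were reverse-complemented. The mouse table has 2535 damaged cells that hold a month in place of a count. They were left out, or read as 7 to 12 reads each. A last line with the total was dropped.

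With Python 3.11.15 and SciPy 1.17.1, reads of at least 18 nt were placed without gaps and with at most 2 mismatches on GENCODE M21 RNAs, on their own family first. Placement was tested on simulated reads. Shares have Clopper-Pearson intervals, counts Poisson intervals and ratios conditional binomial intervals, all at 95%, and a count of 0 was taken to allow 3 reads. They treat PCR copies as independent, which they are not.

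Every family was named. In families of at least 100 reads in a library, the 3 most abundant sequences were named, in library order of reads, with ties in alphabetical order, and up to 5 entries were tabulated, of which a few are given by their reads because accessions are left out. RNase P sequences fall outside this rule and were chosen after their values were seen. Vault sequences and some SRP RNA sequences are not reported here. The families, lists and alternatives were chosen with earlier results of these data known. The alternatives covered mismatches, strand, count and length limits, distinct sequences, damaged counts, other denominators, other definitions of an end, and placement by sequence. The limits to placed reads, with or without those overhanging an end, and to reads of at most 45 nt, and restored counts for leading sequences and ends, were added after seeing the data. Windows of 5′ ends were centred on ends with at least 10 reads and 3% of placed reads in a library.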

Additional observations from a re-analysis of the deposited data

Results flagged for a closer look

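Some reads of the parent RNAs lay under labels outside the families, above the 3 reads that a count of 0 allows. On Rny1 these were 13 mouse reads, on Rny3 54 mouse and 20 rat reads, on Rn7s1 72 mouse reads, and on Rn7sk 14 mouse and 4 rat reads. The damaged cells of mouse member sequences would hold 517 reads. Of these, 435 belong to SRP RNA, 51 to 7SK RNA and 31 to vault RNA, and Y RNA and RNase P RNA have 0 damaged cells.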

How the results depend on the processing

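No paired analysis was possible because each species has 1 library, and leaving out a replicate could not be tried either. All ratios here are of the mouse share over the rat share, and the cause of each shift was not tested. The reported ratios were 0.184 for Y, 0.0693 for vault, 0.981 for SRP, 1.23 for 7SK and 2.03 for RNase P RNA.

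Y and vault RNA stayed below 1 in every alternative that gave a value. Y RNA moved to 0.107 (sequences of at least 10 reads), 0.668 (each sequence counted once), 0.228 (18 to 30 nt), 0.719 (31 to 45 nt), 0.123 (per structural RNA read), 0.0669 (per miRNA read) and 0.268 (by sequence under any label). The ratio by sequence under any label includes the reads on Rny3, and on Rny1 alone it was 0.200 (0.169 to 0.236). Without mismatches the mouse had 0 Y RNA reads and no ratio. Vault RNA moved to 0.0271 (at least 10 reads), 0.286 (each sequence once), 0.385 (31 to 45 nt), 0.0464 (per structural RNA read), 0.0251 (per miRNA read), 0.0953 (no mismatch) and 0.104 (damaged counts restored).

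SRP RNA crossed 1 with the choice. It moved to 0.848 (plus strand), 0.381 (at least 10 reads), 0.822 (18 to 30 nt), 0.657 (per structural RNA read), 0.356 (per miRNA read), 0.848 (by sequence under any label) and 0.827 (placed reads, with or without overhanging ones), and rose above 1 at 1.67 (each sequence once), 1.43 (31 to 45 nt) and 1.08 (restored counts). 7SK RNA turned to the rat at 0.888 (no mismatch), 0.810 (at least 10 reads), 0.980 (each sequence once), 0.916 (31 to 45 nt), 0.822 (per structural RNA read) and 0.445 (per miRNA read), and moved further towards the mouse at 1.72 (plus strand) and 1.63 (18 to 30 nt). RNase P RNA turned to the rat at 0.736 (per miRNA read) and 0.745 (placed reads with overhanging ones) and moved to 3.05 (no mismatch), 1.16 (each sequence once), 1.36 (per structural RNA read) and 1.11 (placed reads). No ratio for RNase P RNA could be had from sequences of at least 10 reads, since the mouse has none.

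Of the 169 other values recomputed for shares, leading sequences and ends, 81 stayed within their counting interval and 88 moved outside it.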
